A study of Homo sapiens with 5 samples.

Results

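Core spliceosome mRNAs are the messages that encode the proteins of the machine that removes introns. They were followed through RNA immunoprecipitation and sequencing (RIP-seq) of PSF, which binds RNA and is the product of SFPQ. The 52 genes were listed by name, with no threshold on a measured value but with earlier results of these data known, and all 52 were found by gene symbol among the 25702 genes of the deposited table. All 52 averaged 1 CPM (a gene's count relative to its library's total) or more over the 5 libraries, as did 13321 genes in all, of which 11806 are nuclear protein-coding genes.

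The cells were LTAD, a human prostate cancer line kept in phenol-red-free medium with charcoal-treated serum, which is low in androgens. They received the vehicle DMSO or the small molecule No.10-3 at 5 µM, a compound known here only by its code name. The labels set the compound against its vehicle in RNA recovered with PSF. There were 2 input libraries of lysate RNA (1 from vehicle cells and 1 from No.10-3 cells), 1 PSF-RIP library of vehicle cells and 2 PSF-RIP libraries of No.10-3 cells (replicates 1 and 2). The columns of the inputs do not say which is which, so both served together as 1 reference and are called the deeper and the shallower input. For No.10-3 PSF-RIP the column names give only the compound, and they were assigned because the other pair is named input. No control immunoprecipitation is among the 5 samples, and the labels do not say whether the No.10-3 libraries came from separate cultures. The p-values thus measure the spread between these libraries, mostly as shared across genes, and that spread may be technical.

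The spliceosome is built from small nuclear ribonucleoproteins (snRNPs), each a small nuclear RNA with a ring of Sm or LSm proteins and a set of particle-specific proteins. U1 binds the 5′ splice site and U2 the branch point, after which the U4/U6.U5 tri-snRNP and the PRP19 complex join and RNA helicases drive the rearrangements of the splicing cycle. The proteins differ greatly in size, from the small Sm and LSm subunits to the scaffold PRPF8 and the helicase SNRNP200, and so do their messages.

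Libraries held 1519362 to 4010376 counts over genes. In the inputs, 5 abundant small RNAs (RN7SK, RPPH1, RN7SL1, RN7SL2 and RMRP) took 51.7% and 55.0% of counts and nuclear protein-coding genes only 15.9% and 16.4%. In PSF-RIP the same 5 RNAs took 2.63% to 7.81% and nuclear protein-coding genes 73.6% to 82.1%. TMM scaling, which sets libraries level on the bulk of genes, gave factors of 0.365 and 0.388 for the inputs and 1.78 to 2.06 for PSF-RIP. Levels below are CPM after this scaling ("scaled CPM"), so higher and lower mean relative to the typical tested gene. On library totals alone the median tested gene was 2.38 log2 units higher in PSF-RIP, against 0.05 after scaling, and all 52 members were on the higher side, so the direction of every lower value below belongs to the scaled comparison. Of 10 luminal prostate markers all 10 passed the filter, whereas 0 of 3 basal, 0 of 4 blood, 1 of 4 stromal (COL1A1) and 1 of 2 endothelial markers (VWF) did. VWF had 0.997 and 0.324 CPM in the inputs before scaling and passed only through its PSF-RIP libraries.

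As a share of nuclear protein-coding counts, the 52 members took 0.392% (95% Wilson interval 0.377 to 0.407%) and 0.398% (0.381 to 0.416%) in the inputs. They took 0.615% (0.603 to 0.627%) in vehicle PSF-RIP and 0.491% (0.478 to 0.504%) and 0.502% (0.494 to 0.510%) in No.10-3 PSF-RIP. The share was thus higher in each PSF-RIP library than in either input, and highest with vehicle. These intervals cover counting error only, and the labels mention no molecular identifiers. They leave out the spread between libraries, with chi-square over its degrees of freedom at 6.79 for the inputs and 26.7 for the No.10-3 pair. A member had a median of 33.5 and 30.5 counts in the inputs and of 81.5 to 188.5 in PSF-RIP, so the inputs limit the precision of most comparisons.

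In PSF-RIP over input, 12 members were higher and 8 lower. Of the 13 Sm and LSm ring messages 6 were lower and 0 higher, with LSM5, SNRPG and LSM3 at the far end. Of the 16 U5, U4/U6 and tri-snRNP and helicase messages 6 were higher and 0 lower, among them PRPF6, DHX38 and DHX16. The other groups held 6 higher and 2 lower members, SNRNP70 and SNRPA1 having the highest values and BCAS2 the lowest. SNRPA1 passed the CPM filter only through its PSF-RIP libraries. The test was edgeR's quasi-likelihood test with Benjamini-Hochberg adjustment over 13321 genes, on the mean of the vehicle and No.10-3 PSF-RIP groups minus the mean of the inputs. Of all tested genes 12% (1596) were called higher and 13.6% (1817) lower. The same shares are the background for the counts by role group below, which rest on 3 to 9 messages each and were not tested as sets. The median log2 difference over the 52 members was 0.38, against 0.05 over all tested genes and 0.10 over the nuclear protein-coding ones. The PSF-RIP libraries all lay above both inputs for 22 members and all below for 11, against 30.1% and 25.1% of tested genes, and overlapped an input for 19. All 20 called members were among those without overlap.

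**Figure D1:**
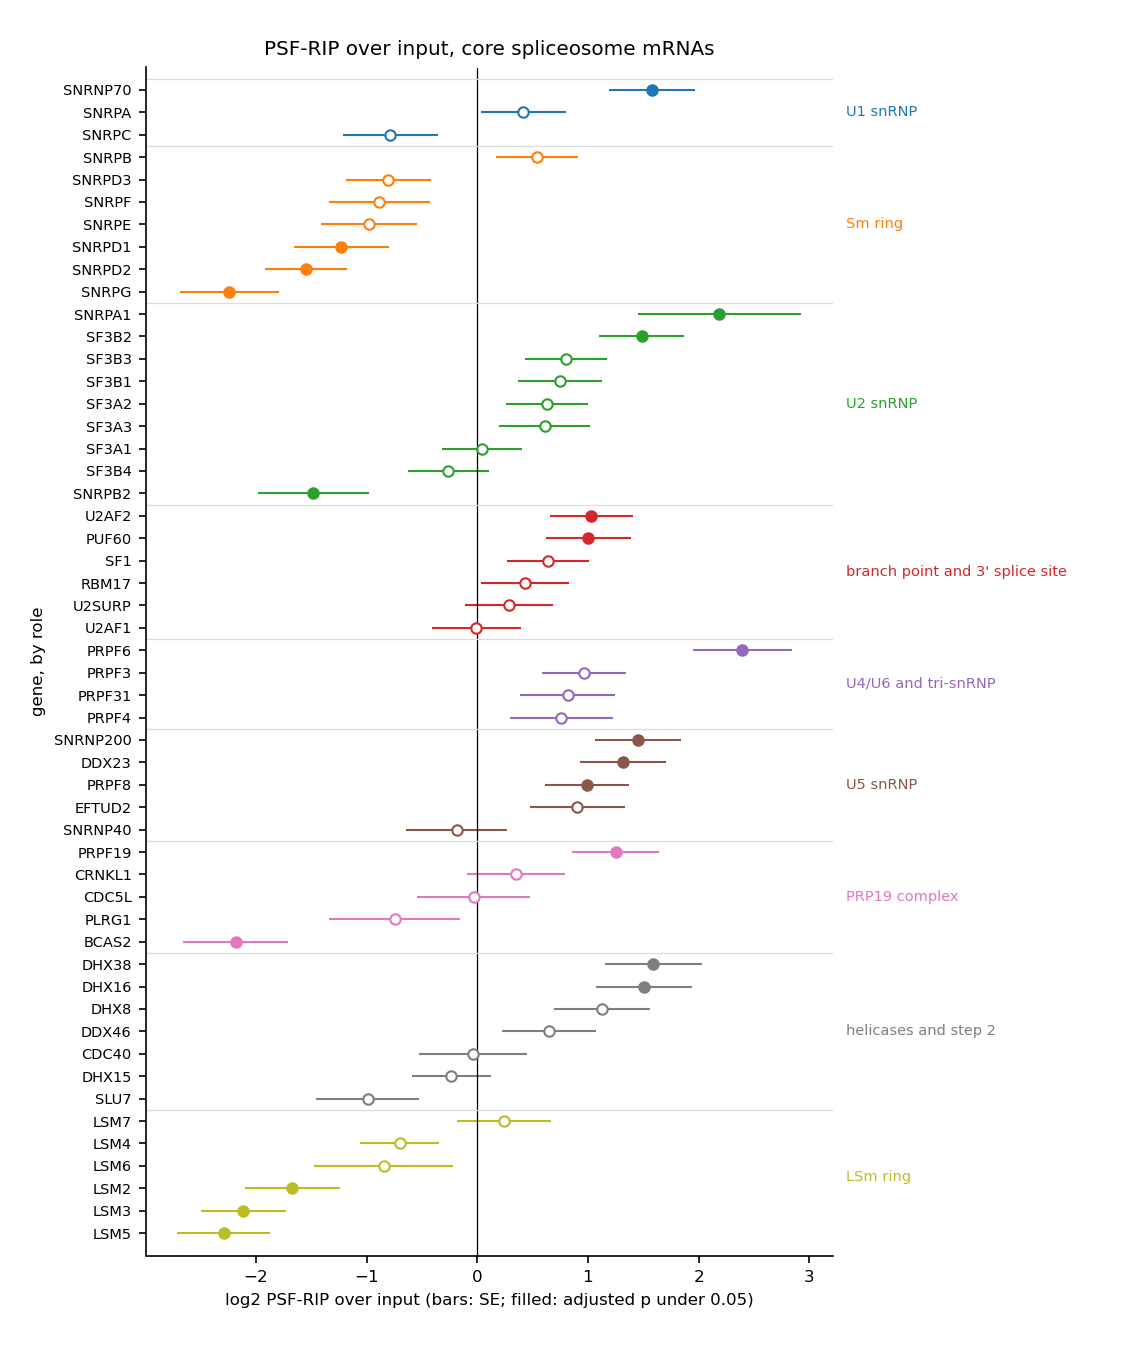
Log2 PSF-RIP over input (x axis) for the 52 members (y axis, grouped by role), with bars of 1 SE and filled points for an adjusted p under 0.05. The 12 filled points on the right include 3 of 5 U5 members, and the 8 filled points on the left include 3 Sm and 3 LSm ring members.

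The number of calls depended on single libraries, among the members and among all tested genes alike. Leaving out either input or the vehicle PSF-RIP library lowered both counts, and leaving out a No.10-3 library raised both. Without the shallower input only PRPF6, LSM3 and LSM5 were called, and without the deeper input PRPF6 and 6 lower members (BCAS2, LSM2, LSM3, LSM5, SNRPD2 and SNRPG). Without the vehicle PSF-RIP library 10 members were called, 4 higher (PRPF19, PRPF6, SF3B2 and SNRNP70) and 6 lower. Without No.10-3 replicate 1 or 2, 27 and 30 members were called, in each case with all 20 of those above among them. With 1 input or 1 No.10-3 library left out, 1 residual degree of freedom is left, from the No.10-3 pair in the first case and from the inputs in the second, and the lone libraries are assumed to vary alike.

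The U1 snRNP recognises the 5′ splice site, and of the messages of its 3 specific proteins 1 rose and 0 fell. SNRNP70, the U1-70K protein that binds the first stem loop of U1 RNA, stood at 21.9 and 21.3 scaled CPM in the inputs, 80.0 in vehicle PSF-RIP and 54.7 and 49.9 in No.10-3 PSF-RIP. Every PSF-RIP library was above both inputs, and the message was higher by 2.99-fold, a log2 difference of 1.58 (SE 0.39, adjusted p = 0.00317). SNRPA, which encodes the A protein of U1, stood at 27.7 and 30.2 in the inputs, 47.9 with vehicle and 36.9 and 25.7 with No.10-3, a log2 difference of 0.42 (SE 0.38, adjusted p = 0.440), with the groups overlapping through No.10-3 replicate 2. SNRPC, which encodes the C protein of U1, had the lowest value of the 3, at 15.4 and 31.1 in the inputs, 12.1 with vehicle and 16.3 and 12.98 with No.10-3. Its inputs lay further apart than its PSF-RIP libraries, and its log2 difference of -0.79 (SE 0.43, adjusted p = 0.177) missed the threshold.

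The 7 Sm proteins form the ring that is assembled around U1, U2, U4 and U5 RNA in the cytoplasm. Their summed level was 216 and 331 in the inputs, 125 in vehicle PSF-RIP and 183 and 176 in No.10-3 PSF-RIP, below both inputs in every PSF-RIP library. Of the 7 messages 3 fell (SNRPG, SNRPD2 and SNRPD1) and 0 rose. Many Sm and LSm genes have processed pseudogene copies, and the counting of reads shared with them was not tested. SNRPG stood at 20.6 and 34.6 scaled CPM in the inputs, 5.24 in vehicle PSF-RIP and 6.28 and 6.34 in No.10-3 PSF-RIP, 4.72-fold lower, a log2 difference of -2.24 (SE 0.45, adjusted p = 4.23e-04). SNRPD2 stood at 73.96 and 124 in the inputs, 31.7 with vehicle and 43.6 and 29.1 with No.10-3, a log2 difference of -1.55 (SE 0.37, adjusted p = 0.00243). In both, the lowest input was above the highest PSF-RIP library. SNRPD1 stood at 21.2 and 25.7 in the inputs, 9.05 with vehicle and 8.50 and 12.98 with No.10-3, a log2 difference of -1.23 (SE 0.43, adjusted p = 0.0318), which DESeq2 did not call (adjusted p = 0.0738). SNRPE (-0.98, SE 0.43, adjusted p = 0.0895) and SNRPF (-0.88, SE 0.45, adjusted p = 0.146) had values on the same side that missed the threshold. SNRPB, which encodes SmB, was the member of the ring with the highest value, at 34.1 and 34.6 in the inputs, 45.0 with vehicle and 56.2 and 54.5 with No.10-3, a log2 difference of 0.54 (SE 0.37, adjusted p = 0.288). All its PSF-RIP libraries were above both inputs, but it was not called. SNRPD3 stood at 31.5 and 69.2 in the inputs, 17.6 with vehicle and 39.5 and 52.3 with No.10-3, a log2 difference of -0.80 (SE 0.38, adjusted p = 0.117), with both No.10-3 libraries between the inputs and vehicle below them.

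The LSm ring, LSM2 to LSM7 here, is the related ring that caps the 3′ end of U6 RNA and, with another partner, takes part in cytoplasmic mRNA decay. Its summed level was 244 and 273 in the inputs, 126 in vehicle PSF-RIP and 142 and 97.5 in No.10-3 PSF-RIP. Of the 6 messages 3 fell (LSM5, LSM3 and LSM2) and 0 rose, and 5 of the 6 had all PSF-RIP libraries below both inputs. Over all tested genes 13.6% were called lower and 25.1% had all PSF-RIP libraries below both inputs. LSM5 stood at 42.4 and 30.2 scaled CPM in the inputs, 8.33 in vehicle PSF-RIP and 6.65 and 6.63 in No.10-3 PSF-RIP, 4.89-fold lower, a log2 difference of -2.29 (SE 0.42, adjusted p = 1.56e-04), the lowest value among the 52. LSM3 stood at 51.5 and 64.8 in the inputs, 12.4 with vehicle and 14.8 and 14.1 with No.10-3, a log2 difference of -2.11 (SE 0.38, adjusted p = 1.31e-04). LSM2 stood at 32.2 and 42.6 in the inputs, 11.4 with vehicle and 18.1 and 6.78 with No.10-3, a log2 difference of -1.67 (SE 0.43, adjusted p = 0.00451). In all 3 every PSF-RIP library was below both inputs, and the PSF-RIP libraries of LSM2 were the furthest apart. LSM4 stood at 95.8 and 105 in the inputs, 64.5 with vehicle and 66.1 and 51.9 with No.10-3, a log2 difference of -0.70 (SE 0.36, adjusted p = 0.141). LSM7 did not share the direction: it stood at 17.4 and 24.9 in the inputs, 26.4 with vehicle and 31.8 and 15.6 with No.10-3, a log2 difference of 0.24 (SE 0.43, adjusted p = 0.704), with overlapping groups. LSM6 was low throughout, at 5.15 and 6.21 in the inputs, 2.86 with vehicle and 4.80 and 2.45 with No.10-3, with only 15 counts over both inputs.

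U2 binds the branch point through the SF3A and SF3B complexes, of which SF3B1 is the scaffold that clamps the branch point helix. Of the 9 U2 messages 2 rose (SNRPA1 and SF3B2), 1 fell (SNRPB2) and 6 were not called. SF3B2 stood at 30.2 and 26.6 scaled CPM in the inputs, 88.6 in vehicle PSF-RIP and 68.7 and 75.1 in No.10-3 PSF-RIP, 2.80-fold higher, a log2 difference of 1.48 (SE 0.38, adjusted p = 0.00461). The spread among inputs and among PSF-RIP libraries, each with vehicle and No.10-3 together, was small beside the gap. Levels were 28.4 ± 2.54 in the inputs (SD, n = 2) and 77.5 ± 10.1 in PSF-RIP (SD, n = 3). SF3B1 stood at 129.9 and 97.7 in the inputs, 239 with vehicle and 133 and 174 with No.10-3, a log2 difference of 0.75 (SE 0.38, adjusted p = 0.140). SF3B3 (0.80, SE 0.37, adjusted p = 0.107), SF3A2 (0.63, SE 0.37, adjusted p = 0.207) and SF3A3 (0.61, SE 0.41, adjusted p = 0.279) had values on the higher side that missed the threshold. SF3A1 (0.05, SE 0.36, adjusted p = 0.939) and SF3B4 (-0.26, SE 0.37, adjusted p = 0.635) were not called, and their groups overlapped.

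SNRPA1 and SNRPB2 encode the A′ and B″ proteins of U2, which bind a stem loop of U2 RNA together. Their messages were called in opposite directions. Before scaling, SNRPA1 had 0.50 and 0.65 CPM in the inputs and 6.58 to 19.7 in PSF-RIP. It thus passed the filter of 1 CPM only through PSF-RIP. SNRPA1 stood at 1.29 and 1.78 scaled CPM in the inputs, 10.2 in vehicle PSF-RIP and 3.69 and 5.48 in No.10-3 PSF-RIP, a log2 difference of 2.19 (SE 0.74, adjusted p = 0.0263). It rests on 2 counts in each input: pooled over libraries, 91 PSF-RIP counts against 4 input counts give a ratio of 4.41 with an exact counting interval of 1.66 to 16.5, and DESeq2 did not call it (adjusted p = 0.120). SNRPB2 stood at 10.9 and 14.2 in the inputs, 3.57 with vehicle and 4.80 and 6.06 with No.10-3, a log2 difference of -1.48 (SE 0.50, adjusted p = 0.0275), and DESeq2 did not call it either (adjusted p = 0.0816).

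Recognition of the branch point and the 3′ splice site is shared by SF1, which binds the branch point first, the U2AF heterodimer, which binds the polypyrimidine tract and the terminal AG, and the accessory proteins PUF60, RBM17 and U2SURP. Of the 6 messages 2 rose and 0 fell. U2AF2, the large subunit, stood at 34.7 and 38.2 scaled CPM in the inputs, 78.3 in vehicle PSF-RIP and 68.4 and 73.0 in No.10-3 PSF-RIP, a log2 difference of 1.03 (SE 0.37, adjusted p = 0.0375). U2AF1, the small subunit, stood at 24.4 and 24.9 in the inputs, 24.3 with vehicle and 20.7 and 28.4 with No.10-3, a log2 difference of -0.01 (SE 0.40, adjusted p = 0.992), with PSF-RIP libraries on both sides of the inputs. The difference between the subunits was not tested. PUF60 stood at 25.7 and 31.1 in the inputs, 66.7 with vehicle and 55.1 and 42.1 with No.10-3, a log2 difference of 1.005 (SE 0.38, adjusted p = 0.0471). Both calls were close to the threshold, were not made by DESeq2 (adjusted p = 0.0672 and 0.102) and were lost with the length trend removed (adjusted p = 0.0705 for U2AF2 and 0.0617 for PUF60). SF1 (0.64, SE 0.37, adjusted p = 0.201), RBM17 (0.43, SE 0.40, adjusted p = 0.443) and U2SURP (0.29, SE 0.40, adjusted p = 0.624) were not called.

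The U4/U6.U5 tri-snRNP brings the catalytic RNAs in a paired, inactive form. Of its U4/U6 and bridging proteins, PRPF6, which links U5 to U4/U6, had the highest value among the 52. PRPF6 stood at 8.36 and 7.99 scaled CPM in the inputs, 48.6 in vehicle PSF-RIP and 39.5 and 37.6 in No.10-3 PSF-RIP, 5.26-fold higher, a log2 difference of 2.40 (SE 0.45, adjusted p = 2.03e-04). With vehicle and No.10-3 together, its levels were 8.18 ± 0.262 in the inputs (SD, n = 2) and 41.9 ± 5.85 in PSF-RIP (SD, n = 3). Its inputs held only 13 and 9 counts, so the small SD between them is itself poorly known. PRPF6 was called under each of the 14 alternatives run. PRPF3 stood at 46.3 and 27.5 in the inputs, 92.9 with vehicle and 59.5 and 54.6 with No.10-3, a log2 difference of 0.97 (SE 0.38, adjusted p = 0.0543), just outside the threshold. PRPF31 (0.82, SE 0.43, adjusted p = 0.153) and PRPF4 (0.76, SE 0.46, adjusted p = 0.225) were also on the higher side without a call, and PRPF4, the lowest of the group, stood at 12.9 and 7.10 in the inputs, 17.4 with vehicle and 17.4 and 17.2 with No.10-3. The summed level of these 4 messages was 79.1 and 64.8 in the inputs, 194 in vehicle PSF-RIP and 139 and 136 in No.10-3 PSF-RIP.

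U5 holds the exons in the catalytic centre, with PRPF8 as the central scaffold, SNRNP200 (Brr2) as the helicase that unwinds U4/U6 and EFTUD2 (Snu114) as the GTPase that controls it. Of the 5 messages 3 rose and 0 fell. SNRNP200 stood at 70.7 and 54.2 scaled CPM in the inputs, 204 in vehicle PSF-RIP and 173 and 116 in No.10-3 PSF-RIP, 2.74-fold higher, a log2 difference of 1.45 (SE 0.39, adjusted p = 0.00626). DDX23 (Prp28), the helicase that releases U1 from the 5′ splice site, stood at 38.6 and 21.3 in the inputs, 90.0 with vehicle and 69.8 and 57.1 with No.10-3, a log2 difference of 1.32 (SE 0.39, adjusted p = 0.0117). PRPF8 stood at 98.4 and 76.4 in the inputs, 186 with vehicle and 161 and 164 with No.10-3, a log2 difference of 0.99 (SE 0.38, adjusted p = 0.0493) at the edge of the threshold, which DESeq2 missed (adjusted p = 0.0541). In all 3 the PSF-RIP libraries lay above both inputs, as they did for EFTUD2 (0.90, SE 0.43, adjusted p = 0.111), which was not called. SNRNP40, a small WD40-repeat protein of U5, stood at 14.1 and 10.7 in the inputs, 8.57 with vehicle and 12.2 and 15.7 with No.10-3, a log2 difference of -0.19 (SE 0.46, adjusted p = 0.797). The summed U5 level was 239 and 175 in the inputs, 520.0 in vehicle PSF-RIP and 444 and 374 in No.10-3 PSF-RIP.

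**Figure D2:**
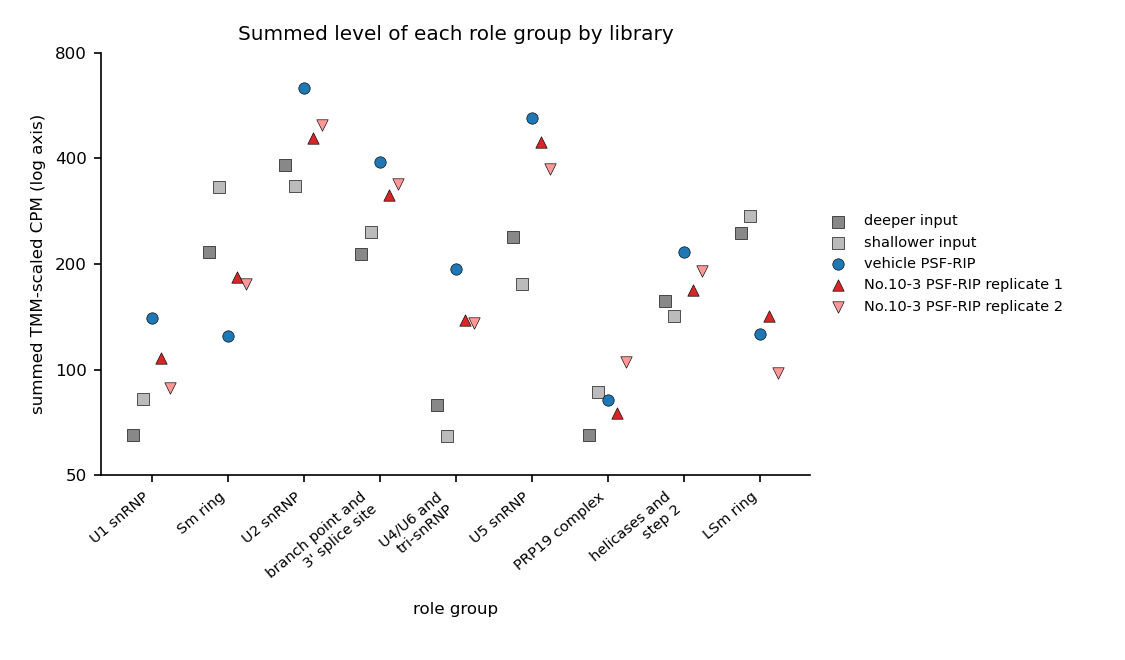
Summed scaled CPM (y axis, log) of each role group (x axis) in the 5 libraries, 1 point per library. The 3 PSF-RIP points lie above both inputs for the U1, U2, branch point, U4/U6, U5 and helicase groups, below both for the Sm and LSm rings, and among them for the PRP19 complex.

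The PRP19 complex enters with the tri-snRNP and stabilises the catalytic core, with PRPF19 as its ubiquitin ligase and scaffold. Of its 5 messages 1 rose and 1 fell. PRPF19 stood at 17.4 and 24.0 scaled CPM in the inputs, 41.7 in vehicle PSF-RIP and 54.3 and 59.7 in No.10-3 PSF-RIP, a log2 difference of 1.25 (SE 0.39, adjusted p = 0.0180). BCAS2 (SPF27), a core subunit, stood at 18.0 and 30.2 in the inputs, 3.81 with vehicle and 4.06 and 9.52 with No.10-3, 4.54-fold lower, a log2 difference of -2.18 (SE 0.47, adjusted p = 0.00103). In both, the groups did not overlap. CRNKL1 (0.35, SE 0.45, adjusted p = 0.592), CDC5L (-0.03, SE 0.51, adjusted p = 0.970) and PLRG1 (-0.75, SE 0.59, adjusted p = 0.365) were not called, and PLRG1 had 4 counts in No.10-3 replicate 1.

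Helicases of the DEAH-box family remodel the spliceosome at each step, DHX16 (Prp2) before and DHX38 (Prp16) after the first reaction, DHX8 (Prp22) at mRNA release and DHX15 (Prp43) at disassembly. Of these and DDX46, CDC40 and SLU7, 2 rose and 0 fell. DHX38 stood at 12.9 and 8.88 scaled CPM in the inputs, 38.8 in vehicle PSF-RIP and 28.4 and 28.6 in No.10-3 PSF-RIP, 3.01-fold higher, a log2 difference of 1.59 (SE 0.44, adjusted p = 0.00755). DHX16 stood at 12.2 and 10.7 in the inputs, 36.2 with vehicle and 32.5 and 26.8 with No.10-3, a log2 difference of 1.51 (SE 0.44, adjusted p = 0.0106). Both had all PSF-RIP libraries above both inputs. DHX8 had a value of 1.13 (SE 0.43, adjusted p = 0.0511) and DDX46 one of 0.65 (SE 0.42, adjusted p = 0.264), while DHX15 stood at 61.7 and 55.0 in the inputs, 59.8 with vehicle and 35.1 and 47.0 with No.10-3, a log2 difference of -0.24 (SE 0.36, adjusted p = 0.659). The step 2 factors CDC40 (-0.04, SE 0.49, adjusted p = 0.960) and SLU7 were not called. SLU7, the lowest of the group, stood at 21.2 and 36.4 in the inputs, 13.6 with vehicle and 5.17 and 23.6 with No.10-3, a log2 difference of -0.99 (SE 0.46, adjusted p = 0.108), with its No.10-3 libraries far apart.

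**Figure D3:**
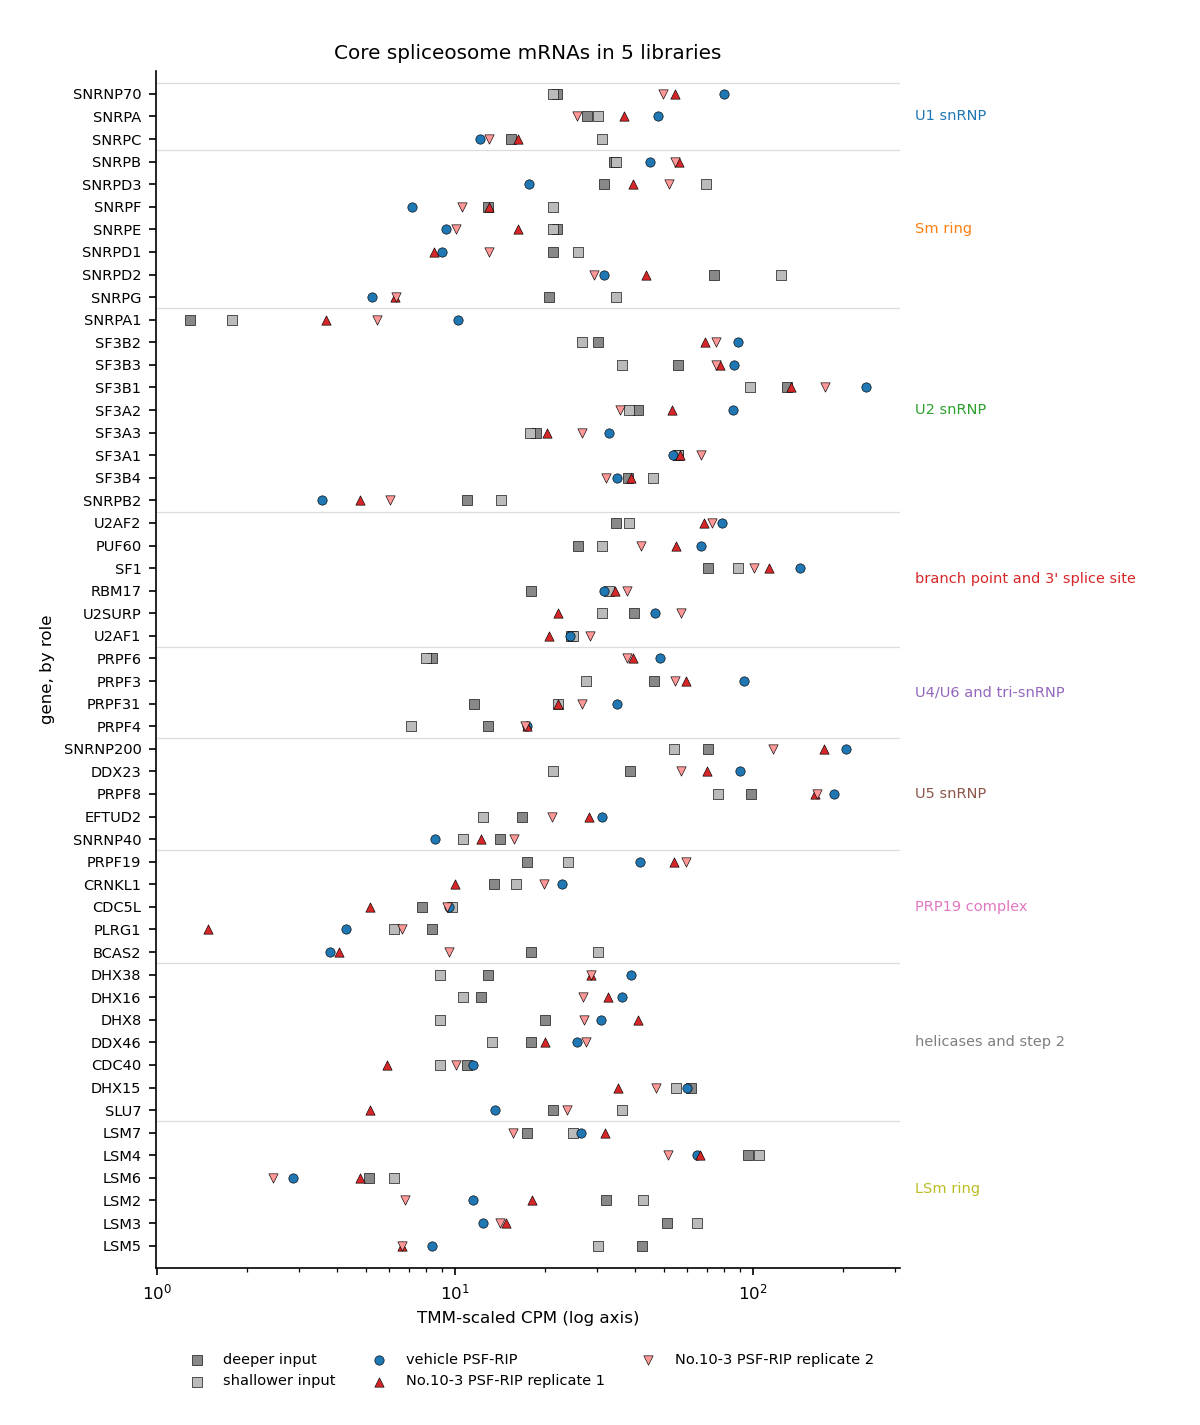
Scaled CPM (x axis, log) of the 52 members (y axis, by role) in the 5 libraries, with grey squares for inputs, blue circles for vehicle PSF-RIP and red or pink triangles for No.10-3 PSF-RIP. PRPF6 shows all PSF-RIP points between 37.6 and 48.6 against inputs at 7.99 and 8.36, and LSM3 shows the reverse, at 12.4 to 14.8 against 51.5 and 64.8.

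Per kilobase of deposited gene length, which allows genes to be compared, the most abundant members in input were SNRPD2 (114 scaled CPM per kb), LSM4 (87.4) and LSM3 (83.6). The least abundant were SNRPA1 (1.45), DHX38 (2.44) and CDC40 (2.57). In PSF-RIP the same quantity was 40.1 for SNRPD2, 53.0 for LSM4 and 19.8 for LSM3, and 6.11, 7.17 and 2.37 for the other three. The 3 ring messages were nearer to SNRPA1 and DHX38 in PSF-RIP than in input, while CDC40 had about the same level in both. All were picked as the extremes of these same inputs, so this narrowing may come from the choice and carries no test.

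Members differed in gene length, which the choice of members did not use. Over the 52, log2 PSF-RIP over input and log2 length had a Pearson's r of 0.52 and a Spearman's rho of 0.51, against 0.09 and 0.06 over 11806 nuclear protein-coding genes. These are correlations across genes of the same 5 libraries and carry no test. Of 7 members under 1000 nt 4 were lower and 0 higher, against 26.8% and 1.54% of 649 coding genes of that length. Of 17 members of 1000 to 2000 nt 3 were lower and 3 higher, against 14.1% and 8.27%. Of 6 members of 2000 to 3000 nt 2 were higher, of 10 of 3000 to 4000 nt 4 were higher and 1 lower, and of 12 of 4000 nt or more 3 were higher. In these longer classes 15.1% to 15.9% of coding genes were higher. The median log2 difference of members under 1000 nt was -1.55, against -0.62 for coding genes of that length.

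Length did not order every member. LSM5 has a deposited length of 3265 nt, close to that of PRPF6 (3101 nt), and the 2 were the lowest and the highest of the 52. LSM7 (520 nt) is the shortest and had a value of 0.24, and SNRPG (575 nt), the next shortest, had -2.24. With the trend on length removed from each library, 19 members were called, 10 higher and 9 lower (11.1% and 15.9% of all tested genes), and 18 of these were among the 20 above. SNRPG moved to -1.50 (adjusted p = 0.00665), LSM3 to -1.55 (adjusted p = 0.00114) and LSM5 to -2.48 (adjusted p = 8.78e-06). The correlation with length over the members was then 0.38. The deposited length may span several transcript forms, so it need not be that of the message in these cells.

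**Figure D4:**
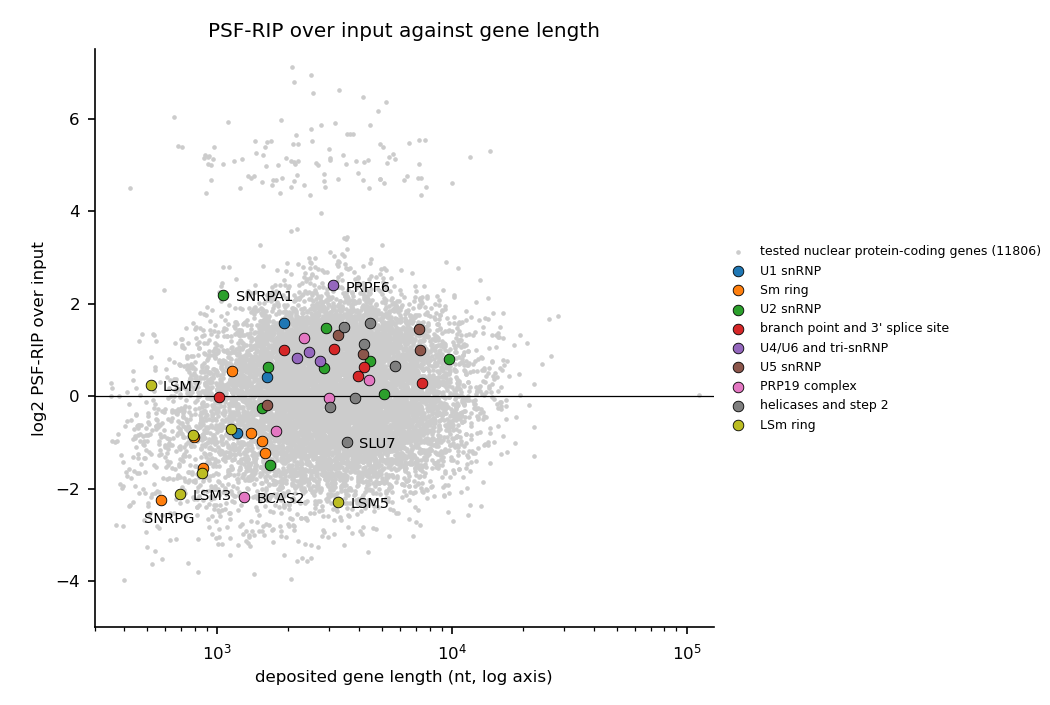
Log2 PSF-RIP over input (y axis) against deposited gene length in nt (x axis, log), with the 52 members coloured by role over 11806 tested nuclear protein-coding genes in grey. LSM5 and PRPF6 have like lengths and values of -2.29 and 2.40, and most members under 1000 nt lie below 0.

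A further list of 60 spliceosome genes outside the 52, all 60 of them tested, held 6 higher and 5 lower genes, with a median of 0.24. Both counts are smaller shares of the list than the shares called over all tested genes (12% and 13.6%). The called genes with the highest values were SART1 (SNU66 of the tri-snRNP), CACTIN and XAB2 (SYF1). SART1 stood at 5.79 and 2.66 in the inputs, 23.1 with vehicle and 16.3 and 15.6 with No.10-3, a log2 difference of 2.11 (SE 0.53, adjusted p = 0.00372). CACTIN had 1.58 (SE 0.48, adjusted p = 0.0132) and XAB2 1.39 (SE 0.43, adjusted p = 0.0167). The lowest were ZCRB1, of the minor spliceosome, PPIL1, a cyclophilin of the catalytic core, and PHF5A, the small SF3B subunit. ZCRB1 stood at 40.5 and 61.3 in the inputs, 9.76 with vehicle and 5.17 and 18.9 with No.10-3, a log2 difference of -2.18 (SE 0.43, adjusted p = 4.13e-04). PPIL1 had -2.11 (SE 0.47, adjusted p = 0.00128) and PHF5A -1.26 (SE 0.44, adjusted p = 0.0322).

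The comparison of No.10-3 with vehicle PSF-RIP asks whether the compound changed what PSF recovered. No member was called, nor was any of the 13321 tested genes by edgeR (0.00%) or DESeq2 (0.00%). An unadjusted p under 0.05 was reached by 2 members (SNRPD3 and SF3A2), against 6.36% of tested genes (847) by edgeR and 2.05% (273) by DESeq2. Adjusted p-values of the 52 ran from 0.782 to 0.997. The 95% intervals of the log2 difference extended a median of 0.98 and at least 0.89 to each side, and 34 of the 52 held a fall of 1 log2 unit and 22 a rise of 1. For those members a difference of that size lay within the error of the comparison. The median over members was -0.16, against 0.04 over all tested genes.

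Both No.10-3 libraries lay below vehicle for 26 members and above it for 13, against 32.4% and 33.3% of tested genes, and on opposite sides for 13. Both differences use the same vehicle library. By role, 0 of 7 Sm members had both libraries below vehicle and 5 had both above, whereas 4 of 4 U4/U6 and tri-snRNP members, 4 of 5 U5 members and 6 of 9 U2 members had both below. Median log2 differences were 0.30 for the Sm ring, -0.04 for the LSm ring, -0.30 for U2, -0.42 for U4/U6 and -0.35 for U5. These are values of a comparison that called no gene. Over the members the log2 difference was lower for longer genes (Pearson's r -0.36, Spearman's rho -0.42). Over nuclear protein-coding genes the same correlations were 0.03 and 0.04. Whether role or gene length goes with the differences was not tested.

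Members with both No.10-3 libraries above or both below vehicle were ranked by the smaller of their 2 changes, so that 1 library could not set the rank. By this rank SNRPD3, SNRPF and SNRNP40 were the highest. SNRPD3, the SmD3 message, was at 17.6 scaled CPM with vehicle and 39.5 and 52.3 with No.10-3, a log2 difference of 1.39 (95% interval 0.33 to 2.44, adjusted p = 0.782). SNRPF, at 7.14 with vehicle and 12.9 and 10.5 with No.10-3, had 0.70 (95% interval -0.47 to 1.87, adjusted p = 0.895). SNRNP40, at 8.57 with vehicle and 12.2 and 15.7 with No.10-3, had 0.71 (95% interval -0.42 to 1.85, adjusted p = 0.882). All 3 had both treated libraries above vehicle and none passed the test. SNRPD3 is also a message whose inputs differed, at 31.5 and 69.2.

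SNRPA1, SF3A2 and PRPF3 were the lowest by the same rank. SNRPA1 was at 10.2 with vehicle and 3.69 and 5.48 with No.10-3, a log2 difference of -1.11 (95% interval -2.32 to 0.11, adjusted p = 0.810). SF3A2, a subunit of SF3A, was at 85.7 with vehicle and 53.6 and 35.6 with No.10-3, a difference of -0.95 (95% interval -1.85 to -0.05, adjusted p = 0.782). PRPF3, at 92.9 with vehicle and 59.5 and 54.6 with No.10-3, had -0.70 (95% interval -1.61 to 0.20, adjusted p = 0.854). In each the vehicle library was above both treated libraries. With either No.10-3 library left out, 1 library is set against 1 and the inputs alone give the residual spread. Without No.10-3 replicate 1 that fit called 2 members, SNRPD3 higher and SF3A2 lower, among 870 genes called, and without replicate 2 it called 0 members among 26 genes.

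The treated libraries disagreed most for SLU7, which had 5.17 scaled CPM in replicate 1 and 23.6 in replicate 2 around a vehicle value of 13.6. At 5 of the 52 members they lay at least 1 log2 unit apart (on log2 of scaled CPM plus 1), with a median gap of 0.36. The inputs differed from each other by a median of 0.36 log2 units over members and by at most 1.12, and 1 input is of vehicle and 1 of No.10-3 cells. For the inputs less than 1 was added to scaled CPM before log2, so these medians are not on the same scale. Because the inputs cannot be told apart, a change in recovery cannot be told apart from a change in the amount of a message in the cells.

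**Figure D5:**
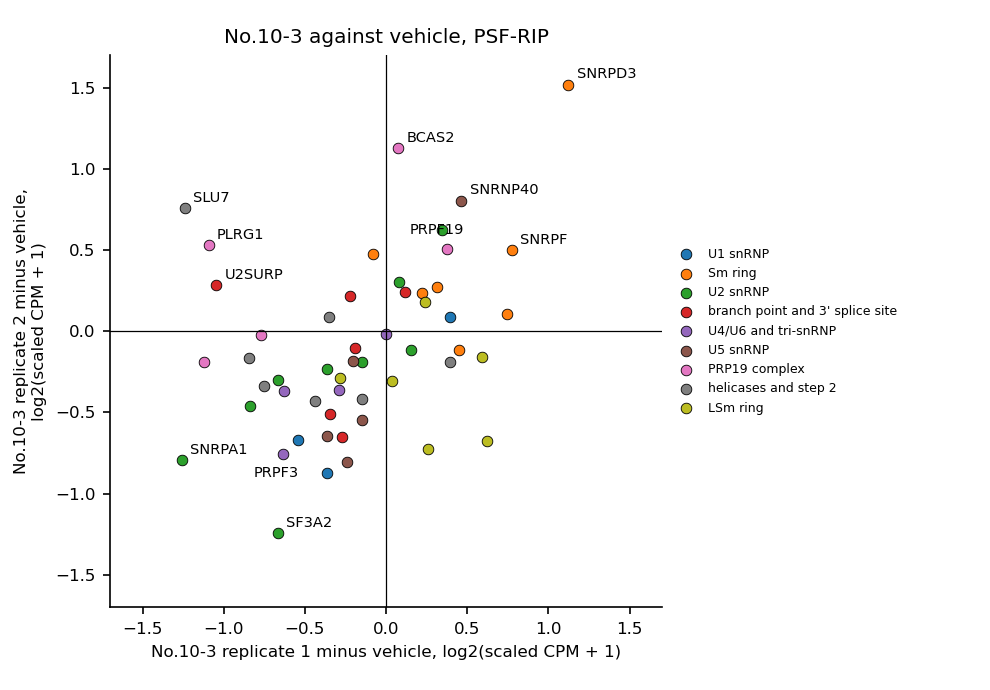
Difference of No.10-3 PSF-RIP from vehicle PSF-RIP, as log2(scaled CPM + 1), in replicate 1 (x axis) and replicate 2 (y axis) for the 52 members coloured by role; both axes share the vehicle library. The lower left quadrant holds 26 members and the upper right 13, with SNRPD3 highest and SF3A2 lowest along the replicate 2 axis.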

How the data were processed

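The authors deposited 1 table with whole-number read counts per Entrez gene for 5 libraries and a gene length in bases. The deposited counts were taken as raw, since they are whole numbers with different totals, and another 5 columns of per-library values were not used. The submitters' processing notes name TopHat2 2.1.0, Bowtie2 2.2.6, Bowtie and hg19 but not what each did. For the counting tool, its strand setting, its annotation and its handling of multiply mapped reads, the answer is not given in the sources used here. Biotypes came from a RefSeq table of GRCh38.p14, which held 23696 of the Entrez IDs and gave no coordinates here.

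Genes averaging 1 CPM or more over the 5 libraries were scaled with TMM and fitted with edgeR 4.0.16 (R 4.3.3, glmQLFit and glmQLFTest) as 3 group means, with 2 residual degrees of freedom per gene and a threshold of 0.05 on the Benjamini-Hochberg adjusted p. To these the fit added 38.68 prior degrees of freedom from the spread shared across genes, for a total of 40.68. The p-values, SEs and intervals thus rest mostly on that shared spread and little on a gene's own libraries. Permuting the labels of 3 against 2 libraries could give no two-sided p below 0.1. The vehicle PSF-RIP group has 1 library and is assumed to vary like the others. The SE is the size of the log2 difference divided by the square root of F. Alternatives were other scalings and filters, DESeq2 1.42.0, a length trend as an offset, 2 group means, and each library left out. The length trend was a loess on log2 length, over nuclear protein-coding genes, of each library's log2 level minus the gene's mean over libraries. The edgeR fit was tested on simulated data. Replicate counts varied beyond sampling noise, with chi-square over its degrees of freedom at 6.79 for the inputs and 26.7 for the No.10-3 pair.

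Named genes were, by rule, the highest and lowest member of each role group, called members, the 3 highest and 3 lowest with No.10-3 by the smaller of the 2 changes, and the 3 highest and lowest per kilobase in input, with up to 3 called genes each way of the further list. Levels of SNRPA, SF3B1, LSM6 and DHX15 were added after their values were seen, and other members are given by their test values. The members and lists were chosen with earlier results of these data known.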

Additional observations from a re-analysis of the deposited data

How the results depend on the processing

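The count of members called in PSF-RIP over input was 20 (12 higher and 8 lower). It was 14 to 22 with RLE or upper-quartile factors, TMM over nuclear protein-coding genes, no filter, at least 5 CPM, the length trend removed, DESeq2 or 2 group means, with 8 to 14 higher and 6 to 9 lower. On library totals alone, a setting chosen after seeing the data, 46 were called, 46 higher and 0 lower. The 8 lower members then had values above 0: SNRPD1 1.13, SNRPD2 0.81, SNRPG 0.11, SNRPB2 0.87, BCAS2 0.18, LSM2 0.67, LSM3 0.24 and LSM5 0.056. Library totals take in the abundant small RNAs of the inputs. They also take in mitochondrial RNA, at 24.4% and 26.3% of input counts and 6.91% to 12.2% of PSF-RIP counts. The part of each in this change of sign was not tested. With 1 library left out in turn the count ran from 3 to 30, with 1 to 19 higher and 2 to 11 lower. Over all tested genes it ran from 623 to 5566 under these leave-outs, against 3413, and was 2191 with DESeq2 and 11274 on library totals. PUF60 lost its call in 10 of 14 alternatives, PRPF8 in 9 and U2AF2 in 6, PRPF6 in 0, and LSM3 and LSM5 in 1, library totals only. The median over members was 0.15 without the vehicle PSF-RIP library, against 0.38.

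In No.10-3 over vehicle, 0 members were called in each alternative but that without No.10-3 replicate 1: with 1 library left out in turn the count ran from 0 to 2, with 0 to 1 higher and 0 to 1 lower. In that fit the inputs alone give the residual spread. The median over members ran from -0.26 with the length trend removed to -0.16. No paired analysis was possible because the sample labels number only 1 library, the second of No.10-3 PSF-RIP, and the numbers given to the inputs only name them. Of pseudogene copies named after members, 3 (of SNRPD2 and SNRPG) have entries of their own, with 3 counts together over all libraries. Input depth limits the low members most, SNRPA1 above all.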
